A study of Anolis chlorocyanus and Anolis cybotes and Anolis osa with 24 samples.

Results

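The genes described here are the 112 abundant genes whose average level was alike in jaw and leg muscle and alike in 4 species of Anolis lizard. They were chosen from 25920 gene identifiers by measured values. A gene had to reach a mean of at least 500 CPM (counts-per-million, the count of a gene scaled by its column total) over 24 libraries. Its leg minus jaw difference, as the mean over 12 title numbers on the log2(CPM + 1) scale, had to lie between -0.5 and 0.5. The highest and lowest of its 4 species means on that scale had to differ by under 1. The first criterion left 208 genes, of which the other criteria kept 112 (53.8%). The libraries came from whole muscle of males of Anolis sagrei, Anolis osa, Anolis cybotes and Anolis chlorocyanus, with 3 jaw and 3 leg libraries a species, so 8 groups of 3. The labels give no age, locality or treatment, and they do not say which jaw or leg muscle was taken. Each title carries a number, and within a species every number is borne by 1 jaw and 1 leg library.

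Anolis lizards are small, mostly tree-living reptiles that feed and fight with the jaws and run and jump with the legs. A skeletal muscle fibre devotes much of its messenger RNA to a short list of products. These are as a rule the proteins of the sarcomere, the enzymes of glycolysis and of high-energy phosphate transfer, the respiratory chain and the ribosome. Some of these proteins exist in forms that differ between muscle types, and others are shared by all fibres. No gene symbols stand beside the identifiers, so which of these classes a member belongs to is not given here, and neither is a check of the muscle label against marker genes. Reads of all 4 species were counted on common identifiers with the Ensembl prefix of the green anole, so a difference in mapping between species cannot be told apart from a difference in level. In whole muscle, fewer cells of a type and less RNA per cell cannot be told apart either.

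Of the 96 abundant genes outside the set, 28 were left out by the leg minus jaw difference alone, 42 by the species range alone and 26 by both. The edges of the set fell in a continuous cloud of values. The lowest mean inside was 502 CPM and the highest outside, among genes that met the other criteria, was 499 CPM. The leg minus jaw difference closest to its limit was 0.499 inside and -0.516 outside. The species range closest to its limit was 0.994 inside and 1.001 outside. These values chose the members and carry no test.

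**Figure D1:**
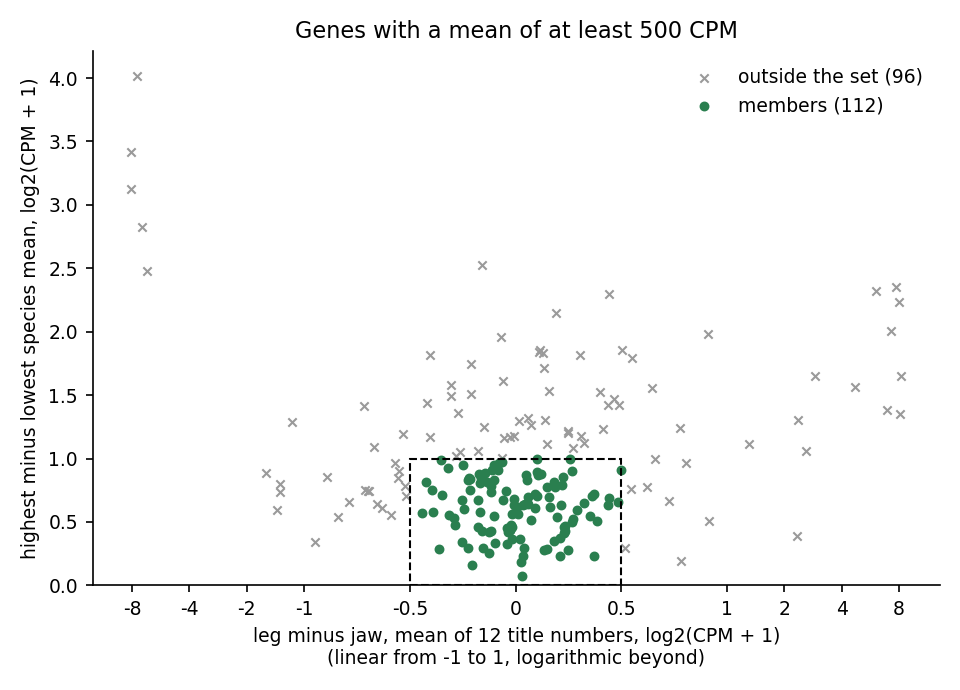
Each point is a gene with a mean of at least 500 CPM, with its leg minus jaw difference (x axis, mean of 12 title numbers) against its range of 4 species means (y axis), both on the log2(CPM + 1) scale. The dashed box holds the 112 members (circles), and the 96 other genes (crosses) lie around it with no gap at its edges.

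The members made up a large part of each library. Together they held 37.1% ± 2.85 of the counts (SD, n = 24 libraries), with 37.6% ± 2.67 in jaw and 36.6% ± 3.06 in leg (SD, n = 12). The 96 abundant genes outside the set held 22.6% ± 3.22 (SD, n = 24). The set was uneven in level. Of its members, 68 had a mean from 500 to 1000 CPM, 16 from 1000 to 2000, 15 from 2000 to 5000, 2 from 5000 to 10000 and 11 above that. Of the 10 most abundant genes of the whole table, 8 were members, and of the 20 most abundant, 12. The 10 most abundant members alone held 23.2% ± 2.46 of the counts, and the remaining 102 held 13.9% ± 0.845 (SD, n = 24).

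ENSACAG00000005552 was the most abundant gene of the table. Its level ran from 42407 to 71028 CPM in jaw (median 61531, n = 12) and from 49204 to 88918 CPM in leg (median 69333, n = 12). The 2 muscles overlapped over most of their range, and leg was above jaw in 11 of 12 title numbers. ENSACAG00000000836 was the third most abundant gene. It ran from 27129 to 57743 CPM in jaw (median 44294) and from 25455 to 50010.5 CPM in leg (median 38664). Leg was above jaw in 5 of 12 title numbers, and the chlorocyanus 08 library was the lowest of its muscle in both muscles.

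In chlorocyanus, the share of counts held by the members differed between title numbers more visibly than between muscles. This was not general, since cybotes 03 had 37.5% in jaw and 32.7% in leg. Over all species the leg share was above the jaw share in 3 of 12 title numbers. In chlorocyanus, number 04 had the highest share of all libraries in each muscle, 41.7% in jaw (exact 95% binomial interval 41.6% to 41.8%) and 41.5% in leg (41.4% to 41.6%). Number 08 of the same species had the lowest of each muscle, 32.8% in jaw (32.7% to 32.9%) and 30.01% in leg (29.9% to 30.1%). Sagrei 17 was nearly level with it in jaw, at 32.8% (32.8% to 32.9%), and had 34.3% in leg. Sagrei 15 and 16 had 38.1% to 39.6% over both muscles. These Clopper-Pearson intervals cover counting error only, and they take reads as independent. Sequenced reads need not be independent molecules, so the intervals may be too narrow even for counting error. The chlorocyanus 08 libraries were also lowest for the abundant genes outside the set, at 15.6% in jaw and 14.6% in leg. They had the largest totals, 1797467 and 1962685 counts, and the largest TMM scaling factors, 1.30 and 1.32, where the 24 libraries ran from 0.803 to 1.32. The part of total and scaling in the members' share was not tested.

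**Figure D2:**
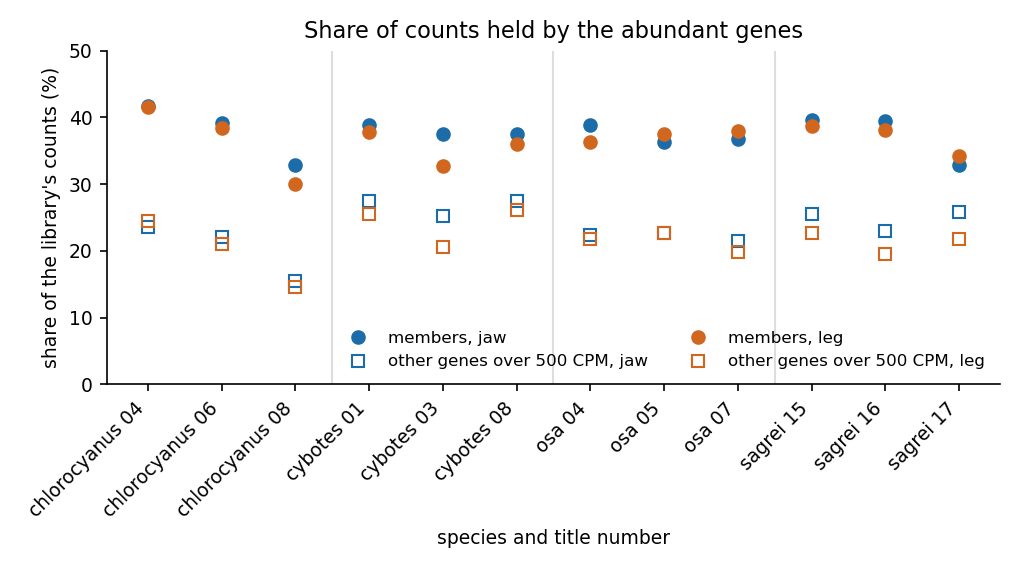
Share of each library's counts (y axis, percent) held by the 112 members (filled circles) and by the 96 other genes over 500 CPM (open squares) in jaw and leg, for each species and title number (x axis). Number 08 of chlorocyanus lies lowest of its muscle for both classes of gene, at 32.8% and 30.01% for the members. Number 04 of that species lies highest for the members. In jaw, sagrei 17 lies nearly level with chlorocyanus 08 for the members.

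Within the window that the rule set, the members leaned to neither muscle on the scale of column totals. The leg minus jaw difference was above 0 for 55 members and below 0 for 57, with a median of -0.01 and a range of -0.44 to 0.499 (log2). Over all 9123 genes tested the median was 0.13 on the same scale, so the median member stood lower in leg relative to the other genes. With TMM scaling, which set the median of all genes at 0.01, the members' median was -0.15 and 33 of 112 were above 0. Being alike in jaw and leg is therefore a statement about shares of the library. By column totals, leg was above jaw in 12 of 12 title numbers in 6 members, and in none was jaw above leg in all 12. The shares over other genes and the counts with TMM scaling are not given here, so these counts are a description. These differences belong to the contrast that the rule used and were not tested.

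The sign of the leg minus jaw difference was not always the same among species. In 66 members it was positive in at least 1 species and negative in another, and in 46 it had the same sign in all 4. No member exceeded 1 (log2) in either direction in any species, and 36 exceeded 0.5 in at least 1 species. A mean difference kept near 0 by the rule favours mixed signs. The shares over other genes are not given here, so these counts are a description and no finding. Differences beyond 0.5 were seen for 16 members in chlorocyanus, 11 in osa, 11 in sagrei and 7 in cybotes. The median difference was 0.08 in sagrei, 0.03 in chlorocyanus, 0.02 in cybotes and -0.03 in osa. No single species held the extreme level throughout. The highest species mean was that of chlorocyanus for 33 members, of sagrei for 29, and of cybotes and osa for 25 each. The lowest was that of cybotes and osa for 33 members each, of chlorocyanus for 30 and of sagrei for 16. The range of species means had a median of 0.63 (log2), and in 37 members it was under 0.5.

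Single libraries differed more than the averages. The ratio of the highest to the lowest of the 24 libraries had a median of 2.82 over the members and ran from 1.66 to 12.7. It was under 2 in 13 members and above 4 in 23. Counting error was small against this spread. The lowest count of any member in any library was 211, and the SD of replicate libraries within their groups was over 2 times the SD expected from counting alone in all 112 members. That SD within the 8 groups, on the log2 scale, had a median of 0.30 over the members, 0.52 over the 96 abundant genes outside the set and 0.56 over all genes tested. Many of the latter have low counts. The rule favours genes of small spread, since a narrow range of species means is harder to meet for a variable gene, so the lower median is no independent finding. The SD was larger in leg than in jaw for 72 of 112 members, with medians of 0.31 and 0.28. The medians had the same order over the abundant genes outside the set (0.49 and 0.46) and over all genes tested (0.55 and 0.54). For 29 members the library farthest from its group mean was chlorocyanus 08 leg, which also had the largest TMM factor, 1.32. The share over other genes is not given here, so this count is a description of the members by column totals.

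**Figure D3:**
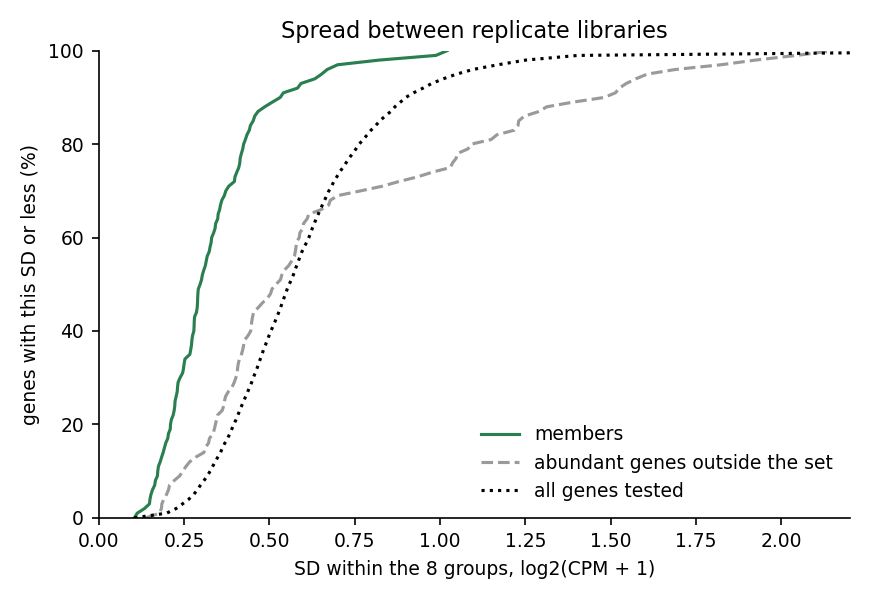
Share of genes (y axis, percent) whose SD between replicate libraries within the 8 groups (x axis, log2(CPM + 1), drawn up to 2.2) is at or below a given value, for the members, the other genes over 500 CPM and all 9123 genes tested. The curve of the members rises first, with a median of 0.30 against 0.52 and 0.56.

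The steadiest members were ENSACAG00000017634 and ENSACAG00000003051. ENSACAG00000017634 had an SD within groups of 0.10 (log2) and ran from 401 to 626 CPM in jaw (median 497) and from 468 to 795 CPM in leg (median 572). ENSACAG00000003051 had an SD of 0.11 and ran from 358 to 757 CPM in jaw (median 547) and from 399 to 935 CPM in leg (median 697). Pooled over species, their levels in the 2 muscles overlapped. Within cybotes and sagrei, all 3 leg libraries of each gene were above all 3 jaw libraries. For ENSACAG00000003051 this held in chlorocyanus too, at 645 to 757 CPM in jaw and 772 to 935 CPM in leg. The muscles overlapped in osa for both genes, and in chlorocyanus for ENSACAG00000017634. Most of the spread of ENSACAG00000003051 lay between species. Its 6 osa libraries stood between 358 and 476 CPM and its 6 chlorocyanus libraries between 645 and 935 CPM.

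What the rule did not use was the title number. Where the jaw library of a number stood above or below its group, the leg library of that number tended to do the same. The correlation of jaw and leg deviations over the 12 numbers, centred on the group means, was positive in 108 of 112 members, above 0.5 in 88 and above 0.9 in 14. Its median was 0.73 over the members, 0.74 over the abundant genes outside the set and 0.58 over all genes tested. These correlations rest on 12 numbers in 4 species and are given as a description. They are by column totals, and TMM scaling factors were alike in jaw and leg of some numbers. The factors were 1.30 and 1.32 in chlorocyanus 08 and 0.844 and 0.824 in chlorocyanus 04, but 0.879 and 1.21 in cybotes 03. The part of scaling in the correlations was not tested. The title number took a median of 36.6% of a member's variance, against 22.3% over the abundant genes outside the set and 29.7% over all genes tested. The rule bounded the differences between species and between muscles, so the shares are not free of it and this order is no finding. The muscle share had a median of 4.24% over the members, 18.6% over the abundant genes outside the set and 2.72% over all genes tested. In the same order the species share had 38.0%, 29.5% and 42.2%. Of the sources compared (species, muscle, their interaction, title number and remainder), species was the largest for 60 members and title number for 48. The shares are not corrected for their degrees of freedom.

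**Figure D4:**
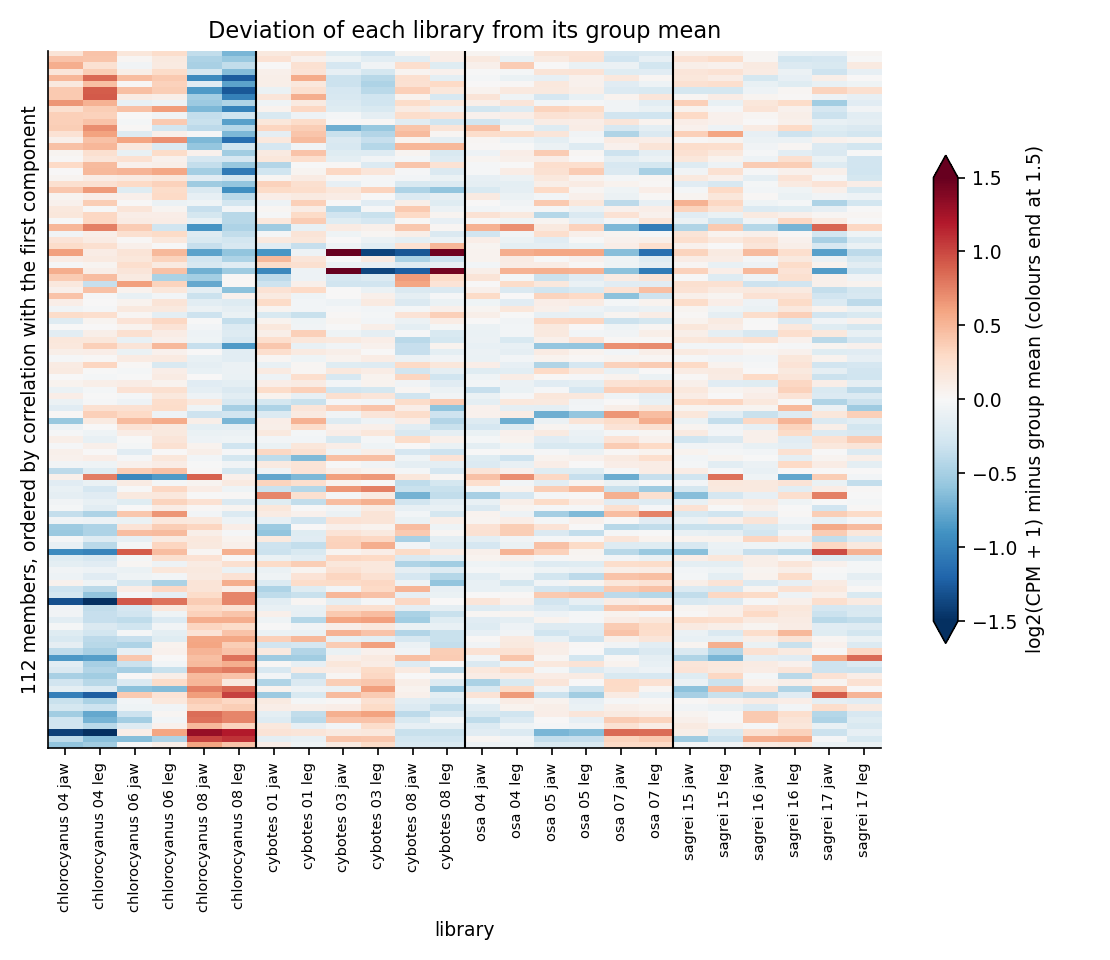
Deviation of each library from the mean of its group of 3 (colour, log2(CPM + 1), ending at 1.5) for the 112 members (rows, ordered by their correlation with the first component of the title number means) in the 24 libraries (columns, with jaw and leg of a number side by side). Paired columns have like colours for most members, and the strongest colours are in chlorocyanus 04 and 08 and, for a pair of members, in cybotes 03 and 08.

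In edgeR's quasi-likelihood F-test, adjusted over all genes by Benjamini-Hochberg, 92 of 112 members (82.1%) differed between title numbers within species at an adjusted p under 0.05. Over all genes the same test called 48.8%, and of the abundant genes outside the set it called 80 of 96 (83.3%). The share among the members was thus close to that of other genes of high count. All 112 members passed the filter on low counts. The 10 most abundant members were all called, as were 55 of the 68 under 1000 CPM. With libraries scaled by their totals alone, the scale of the rule, 70 members (62.5%) were called. This compared with 55.6% of all genes and 69 of the 96 abundant genes outside the set (71.9%). On both scales 61 members were called. Without both chlorocyanus 08 libraries 62 members (55.4%) were called, 61 of them among the 92. This compared with 35.6% of all genes and 59 of the 96 (61.5%). In each of the 12 fits that left out 1 title number, 44 members were called every time. The shares of all genes called on both scales, or in all of these fits, are not given here. The labels do not say whether a number is an animal, and the sources used here give no date or batch, so animal and handling of a number cannot be told apart.

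The spread between numbers was widest in chlorocyanus. The SD of its 3 number means had a median of 0.33 (log2) over the members, against 0.25 in cybotes, 0.20 in sagrei and 0.19 in osa. Over all genes tested the medians were 0.49, 0.37, 0.37 and 0.35 in the same order. For 51 of 112 members chlorocyanus was the species of widest spread. On the scale of column totals the members did not move as a block. The TMM factors of the test were 1.30 and 1.32 for chlorocyanus 08, against 0.844 and 0.824 for chlorocyanus 04. How far the members moved together with TMM scaling was not tested. By column totals, the first principal component of the number means held 42.3% of their variance and ran from chlorocyanus 04 to chlorocyanus 08. Members were divided along it, with 50 positively and 62 negatively correlated, 9 above 0.8 and 10 below -0.8. Over the 6216 pairs of members the median correlation of number means was 0.08. Since levels are shares of a library, a member that takes more leaves less to the other genes. The part of this in the correlations was not tested.

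ENSACAG00000010500 had the smallest p for the title number. Chlorocyanus number 04 gave 311 CPM (jaw) and 241 CPM (leg). Number 06 had 876 and 1249 CPM, and number 08 had 2029.5 and 1888 CPM. Both muscles of number 04 were thus far below both muscles of number 08, and number 06 lay in between. In osa, number 07 reached 2395 CPM in jaw and 1370.1 CPM in leg, above the 828 to 1180 CPM in jaw and 490 to 666 CPM in leg of numbers 04 and 05. In cybotes the 6 libraries ran from 492 to 822 CPM, and in sagrei from 705 to 1127 CPM, with jaw and leg of a number within that narrow span. The widest range of number means within a species was 2.83 (log2), the correlation of jaw and leg deviations was 0.957, and the edgeR adjusted p was 4.98e-06. Over the other settings that p ran up to 0.000321.

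ENSACAG00000022662 had the second smallest p and the opposite order in chlorocyanus. Number 04 gave 2048 CPM (jaw) and 1584 CPM (leg), number 06 had 1995 and 1154 CPM, and number 08 had 750 and 367 CPM. The 2 libraries of number 08 were the lowest of all 24. Its 4 species means differed by 0.16 (log2), although its highest and lowest libraries differed 5.57-fold. The edgeR adjusted p was 3.30e-05, and 0.0276 at most over the other settings.

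For the members named for their mean CPM, the call did not hold in every setting. ENSACAG00000000836 had an edgeR adjusted p of 0.00251 for the title number, 0.0276 with library totals alone and 0.0623 without the chlorocyanus 08 libraries. ENSACAG00000005552 had 0.0145, but 0.159 with library totals alone, 0.0851 without the chlorocyanus 08 libraries and 0.0510 without those of sagrei 17. The calls of the steadiest members depended on the scaling. ENSACAG00000017634 and ENSACAG00000003051 had adjusted p-values of 0.0285 and 0.0356 with TMM scaling, but 0.844 and 0.876 by library totals, the scale on which they were picked as steady. Without the chlorocyanus 08 libraries theirs were 0.605 and 0.436.

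**Figure D5:**
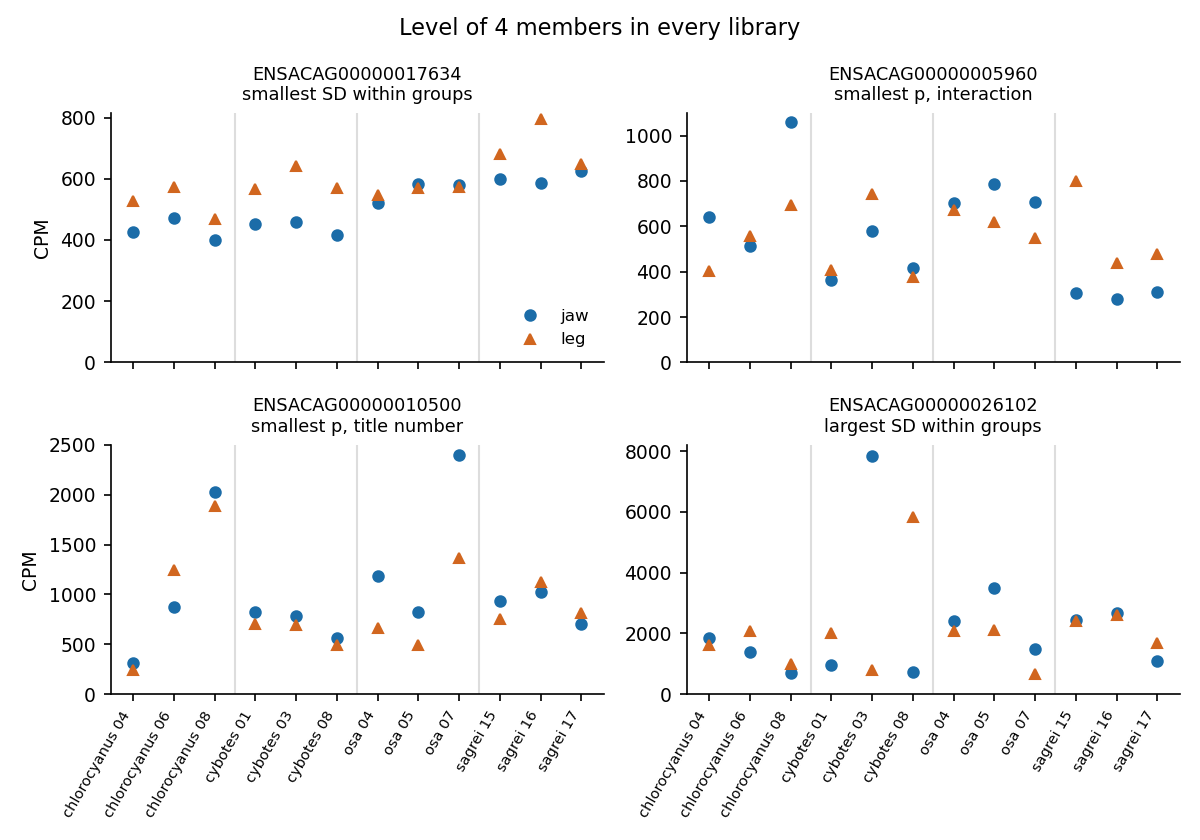
CPM by column total (y axes) of 4 members in jaw (circles) and leg (triangles) for each species and title number (x axes). ENSACAG00000010500 runs from 241 to 2029.5 CPM among the chlorocyanus libraries with jaw and leg of a number close together, while ENSACAG00000026102 reaches 7854 CPM in cybotes 03 jaw and 5820 CPM in cybotes 08 leg with a low level in the other muscle of the same numbers.

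The rule used the mean leg minus jaw difference and not whether that difference varied among species. A large difference in 1 species can still take a gene past the limit on the mean, so a low count among the members may in part follow from the rule. By the edgeR quasi-likelihood test on 8 group means none of the 112 members was called, where 1 of 9123 genes (0.0110%) was. At an unadjusted p under 0.05 the count was 1 member, against 393 of 9123 genes. DESeq2 and limma voom called none of the members, against 0.427% and 0.0548% of all genes. None of these fits has a term for the title number, so the spread between numbers stays in their residual. A count of 0 in them therefore does not show that the difference is alike among species. Leg and jaw share the number, and when that number entered the fit as a block 1 member was called (0.893%), against 2.98% of all genes and 15 of 96 abundant genes outside the set (15.6%). The difference between these shares was not tested. With the block, 20 of 112 members had an unadjusted p under 0.05, as did 1650 of 9123 genes. Limma voom with the block called 6 members (5.36%), against 3.32% of all genes and 18.75% of the abundant genes outside the set. DESeq2 with the block called 7 members (6.25%), against 2.78% and 17.7%. The order of members and all genes thus depended on the tool. In edgeR with the block, the count was 0 without number 04, 05 or 07 of osa, or 04 of chlorocyanus. It was also 0 without 15 or 17 of sagrei. It was 2 without chlorocyanus 08, 3 without cybotes 03 and 4 without cybotes 01.

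The member called was ENSACAG00000005960. In sagrei its jaw level was 306, 278 and 311 CPM in numbers 15, 16 and 17, and its leg level was 801, 440.0 and 480.03 CPM. All 3 leg libraries were above all 3 jaw libraries there. In osa jaw stood at 704, 788 and 709 CPM in numbers 04, 05 and 07, and leg at 673, 617 and 548 CPM, all 3 below the lowest jaw library. In chlorocyanus jaw was at 640.1, 511 and 1060.4 CPM and leg at 402, 559 and 696 CPM, with overlapping groups. In cybotes jaw was at 364, 579.6 and 417 CPM and leg at 405, 743 and 376 CPM, overlapping as well. The leg minus jaw difference was thus 0.89 (log2) in sagrei, 0.12 in cybotes, -0.26 in osa and -0.38 in chlorocyanus. For the interaction edgeR gave an adjusted p of 0.0363 with the block and 0.904 without it. With the block it was 0.153 without sagrei 15, 0.0513 without chlorocyanus 04, 0.0548 without sagrei 17, and 0.0563, 0.0653 and 0.0667 without osa 04, 05 and 07.

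ENSACAG00000013938 was next by p and was not called. In chlorocyanus its level was 1922, 3898 and 3003 CPM in jaw and 1148, 2195 and 1567 CPM in leg of numbers 04, 06 and 08, lower in leg in 3 of 3. In sagrei it was 2137, 1907 and 3016 CPM in jaw and 2792, 2979 and 3462 CPM in leg of numbers 15, 16 and 17, higher in leg in 3 of 3. The groups overlapped in both species. The mean leg minus jaw difference over the 4 species was -0.09 (log2), with -0.84 in chlorocyanus and 0.41 in sagrei. The edgeR adjusted p was 0.0624 with the block and 1 without it. With the block it passed the threshold in some settings, at 0.0155 without cybotes 01, 0.0228 with library totals alone, 0.0134 by limma voom and 0.00334 by DESeq2. The other 11 numbers left out gave 0.0684 to 0.158.

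A pair of members stood apart from this pattern. ENSACAG00000026102 and ENSACAG00000018368 had the largest SD within groups, 1.02 and 1.004 (log2), and are named after their values were seen. ENSACAG00000026102 reached 7854 CPM in the cybotes 03 jaw library and 809 CPM in the leg library of that number. In cybotes 08 it was the other way round, with 725 CPM in jaw and 5820 CPM in leg. In the other 22 libraries it ran from 649 to 3480 CPM, so these 2 libraries were the highest by far and came from different muscles and numbers. ENSACAG00000018368 had 8381 and 799 CPM in jaw and leg of cybotes 03 and 775 and 5645 CPM in those of cybotes 08. The ratio of the first to the second member lay between 0.864 and 1.10 in all 24 libraries (median 1.01), and their deviations from the group means correlated at 0.998 over 24 libraries. Of all pairs of members, 11 exceeded 0.9, and the next highest was 0.949. Neither of this pair exceeded 0.538 with any other member. Whether reads could be assigned to either identifier was not tested.

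Neither of the pair was called for the title number, with edgeR adjusted p-values of 0.148 and 0.174. Without the cybotes 03 libraries these were 0.000642 and 0.000787, and without those of cybotes 08 ENSACAG00000026102 had 0.0453. With no filter on low counts they were 2.34e-30 and 4.13e-28, whereas DESeq2 gave 0.411 and 0.561 and limma voom 0.287 and 0.346. The call for this pair thus depended on the filter and on single numbers. Why the fit with no filter gave such small values was not tested, so they are no ground for a call. Jaw and leg deviations correlated at -0.316 for ENSACAG00000026102 and -0.364 for ENSACAG00000018368. The 2 muscles of a number therefore did not deviate together in this pair, also where a p-value was small. The pair also set how alike the members' deviations in jaw and leg were in 2 numbers. Over all 112 members that correlation was 0.0142 for cybotes 03 and -0.00232 for cybotes 08, and without the pair it was 0.856 and 0.548. Over the other 10 numbers it ran from 0.374 to 0.882 with the pair included.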

How the data were processed

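Total RNA of whole jaw and leg muscle was sequenced in 24 libraries. The deposited table holds raw counts of reads per gene identifier, which are whole numbers that total 1315319 to 1962685 per library. The reads were aligned with STAR, per the submitters' processing notes. Genome build, annotation and counting tool were not given in the sources used here. Since the table was counted by the authors on common identifiers, a gene that maps poorly in a species reads as low there.

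Levels are CPM by column total, and differences are on the log2(CPM + 1) scale. Tests were run in R 4.3.3 with edgeR 4.0.16 on the counts. Genes were kept by filterByExpr (9123 of 25920, where 8688 identifiers had no count in any library), scaled by TMM and fitted by quasi-likelihood, with Benjamini-Hochberg adjustment over all genes kept and a threshold of 0.05. The muscle by species interaction was fitted on 8 group means, and the title number as a term within species beside a leg term. DESeq2 1.42.0, limma 3.58.1 (voom), other scalings, no filter, libraries or numbers left out and the title number as a block were the alternatives. Descriptions were computed with Python 3.11.15. The fits were also run on simulated counts with the same spread for every gene. For the interaction these had no title number effect. Those runs do not show how the interaction fits behave where jaw and leg of a number vary together. No source says that replicates are separate animals, so the p-values cover the spread among these libraries, which may be technical.

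Same-numbered jaw and leg libraries deviated together from their group means over all genes kept, with a correlation of 0.294 to 0.735 in the 12 pairs against -0.655 to 0.0658 between different numbers of a species. On this ground title numbers were treated as pairing jaw with leg in the descriptions, in the title number test and in the interaction fits with a block. The main interaction fit, on group means, had no block and did not pair them. The pairing was taken from the data and not from a statement in the labels. Deviations cancel within a group, so positive values within numbers push those between numbers down. The range between different numbers is therefore no separate ground.

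The members and lists were chosen with earlier results of these data known. Genes named are the first 2 members by mean CPM, by smallest SD within groups and by smallest p of each test, and a pair named after its values were seen. Lists of muscle pathways and cell type markers could not be applied, since the identifiers carry no symbols here, and no sequence was read.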

Additional observations from a re-analysis of the deposited data

Results flagged for a closer look

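The leg minus jaw difference of ENSACAG00000005960 differed among the 4 species by a test of the difference itself, an interaction with the title number as a block (edgeR quasi-likelihood test, adjusted p = 0.0363). The difference was 0.89 (log2) in sagrei, where leg was above jaw in 3 of 3 title numbers, and -0.26 in osa, where it was below in 3 of 3. Without the block the adjusted p was 0.904, and with it 6 of the 12 fits that left out a title number gave a value above 0.05, up to 0.153. No cause was tested.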

How the results depend on the processing

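The number of genes that met the rule was 112, and 109 or 110 with TMM, median-ratio or upper-quartile scaling, 102 of them shared in each case. It was 200 with totals that leave out the 20 most abundant genes, which raises every CPM, 257 and 44 with a minimum of 250 or 1000 CPM, and 37 with a species range under 0.5. Leaving out 1 library gave 106 to 114.

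For the title number the count of members called stayed within 1.5 times of 92 under each alternative run, from 62 without chlorocyanus 08 to 102 with limma voom. Over all genes it ran from 3364 to 5484 around 4453, but out of unlike numbers of genes tested. The 3364 were 35.6% of 9456 without chlorocyanus 08, and the 5484 were 31.8% of 17232 with no low-count filter. The 4453 were 48.8% of 9123.

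For the interaction the title number as a replicate block moved the count from 0 to 1 member and from 1 to 272 genes overall. Without the block, all genes gave 39 calls with DESeq2, 5 with limma voom and 2 with library totals alone. They gave 75 with no low-count filter, out of 17232 tested, and 0 to 4 with 1 library left out. The members gave 0 in each of these. With the block, the members gave 2 with library totals alone, 6 with limma voom, 7 with DESeq2 and 0 to 4 with 1 number left out. In the same order, all genes gave 297, 303, 254 and 150 to 485. The cause was not tested. The added settings with the block, and the set without both chlorocyanus 08 libraries, were chosen after seeing the data.

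For single named genes, 233 alternatives left the p-value on the same side of 0.05, called or not, 24 ended a call and 19 made one. These F-tests have no direction. Counting error was small for every member. The 3 libraries a group, not the depth, limit the precision.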
